A study of Mus musculus with 25 samples.

Results

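The Hox genes encode homeodomain transcription factors that lie side by side in 4 clusters of the mouse genome, HoxA to HoxD. The genes described here are 38 Hox genes of the 21000 protein-coding genes in the RefSeq annotation of the mm10 genome. They were taken by name from the gene family, and the rule uses no measured value. HoxA holds 10 of them, HoxB 10, HoxC 9 and HoxD 9.

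The study asked which genes the histone reader Spin1 occupies in muscle precursors, by chromatin immunoprecipitation followed by sequencing (ChIP-seq). It used primary myoblasts, the dividing precursors of muscle fibers, of C57BL/6 mice (substrain C57BL/6 N) aged 10 days. Muscle of front and hind limbs was pooled, and fibroblasts were depleted by preplating, in which they attach to the dish before the myoblasts do. There was 1 library for Spin1 (a custom antibody) and 1 for trimethylated lysine 4 of histone H3 (H3K4me3, Diagenode antibody), each called against an input library. The labels name no mutation and no treatment for these cells, and the antibody entry of the second library reads H3K4me where its title reads H3K4me3. All values below therefore belong to a mixture of cells from both limb pairs. No replicate exists and the deposited peak lists give no read counts, so depth is unknown and no difference below could be tested.

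Hox genes are switched on along the body axis in the order in which they lie on the chromosome. The anterior genes act in the hindbrain and neck, the central ones in the trunk, and the posterior ones at the lumbar and tail levels and, in HoxA and HoxD above all, along the limb. Polycomb complexes keep Hox genes silent where they do not belong, Trithorax complexes methylate lysine 4 of histone H3 where they are active, and Spin1 binds that trimethyl mark through its Tudor-like domains. Cells grown from different body sites are known to keep a Hox code of their origin.

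A peak is an interval in which ChIP reads exceed the input. The Spin1 list holds 17106 peaks with a median width of 1739 bp, and the H3K4me3 list holds 30763 with a median width of 1655 bp. Each peak carries a score, minus 10 times the log10 of its p-value in the peak caller, which grows with depth and width and piles up at 3100. This ceiling was reached by 30.9% of peaks in the first list and 45.2% in the second, and scores were compared only within a list. A promoter is the transcription start site (TSS) ± 1 kb of any curated RefSeq transcript, and it counts as occupied when a peak overlaps it by at least 1 bp. Cover is the share of the bases of an interval that lie under peaks.

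The label of the cells was checked against marker genes, with all protein-coding genes as the background, of which 56.7% carried Spin1 and 68.0% H3K4me3 at the promoter. All 6 myoblast markers, among them the myogenic factors Myod1 and Myf5 and the satellite cell factor Pax7, carried both Spin1 and H3K4me3. Of 6 fibroblast markers, 5 carried H3K4me3 and 4 carried Spin1 as well, with H3K4me3 peaks of 11546 bp at Pdgfra, which encodes a growth factor receptor, and 8736 bp at the mesenchymal factor Prrx1. Tcf21 had H3K4me3 without Spin1, and Dpt had neither. The myoblast markers were thus all marked, as many promoters are, and the counts for the fibroblast markers, of the cells that preplating should remove, lie near the background. Spin1 was absent from all 4 endothelial, all 4 leukocyte and all 4 epithelial marker promoters, where H3K4me3 lay at 3, 1 and 2 genes. Among neural and Schwann cell markers, Tubb3 carried both and Sox10 carried H3K4me3 only. The part of other cell types in the Hox values was not tested.

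H3K4me3 reached nearly every Hox promoter, while Spin1 was divided between the clusters. An H3K4me3 peak was present at 35 of 38 Hox promoters (92.1%; Wilson 95% interval 79.2 to 97.3), compared with 68.0% of all protein-coding genes. A Spin1 peak was present at 22 of 38 (57.9%; 42.2 to 72.1), close to the 56.7% of all protein-coding genes. Under this call the total for Spin1 is thus near that of all genes and is no result about the Hox genes; how it was divided among them is. No Hox promoter had Spin1 without H3K4me3, a state that was rare over all genes (0.0381%). The mark was present without Spin1 at 13 of 38 Hox promoters, compared with 11.3% of all genes. Both were missing at 3, compared with 32.0%. Of the 35 marked Hox promoters 22 carried Spin1, whereas 83.3% of all marked promoters did. Other developmental regulators were low as well, with Spin1 at 13 of 20 marked promoters in a list of Pax and related genes. The counts were 5 of 15 for master regulators of other lineages and 1 of 6 for caudal and related homeobox genes. Spin1 was at every marked promoter of the Hox cofactors (9), Polycomb subunits (21) and Trithorax genes (8). The low share is thus not particular to the Hox genes. Both comparisons with all genes depend on the call: when the peak center had to lie in the promoter, H3K4me3 was at 22 of 38 Hox genes, near the 56.3% of all genes, and with the 50% of peaks of highest score Spin1 was at 11 of 38, below the 42.9% of all genes.

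By cluster, Spin1 was found at 9 of 10 HoxA promoters, 7 of 9 HoxC promoters, 4 of 9 HoxD promoters and 2 of 10 HoxB promoters. H3K4me3 was found at 10, 9, 7 and 9 of them in the same order. The counts thus spread more widely for the reader than for the mark, and the promoters without the mark were all in HoxB and HoxD. With HoxA and HoxC pooled, a pairing made after their values were seen, Spin1 was present at 16 of 19 promoters (84.2%; 62.4 to 94.5), and in HoxB and HoxD at 6 of 19 (31.6%; 15.4 to 54.0). With the 50% of peaks of highest score these counts fell to 8 and 3, with 5 in HoxA, 1 in HoxB, 3 in HoxC and 2 in HoxD. When the peak center had to lie in the promoter, or the TSS base in the peak, HoxC had 5 of 9 and HoxD 4 of 9, so these 2 clusters were then nearly level. The intervals cover the counting of genes only, and neighboring genes that share a peak are not independent.

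**Figure D1:**
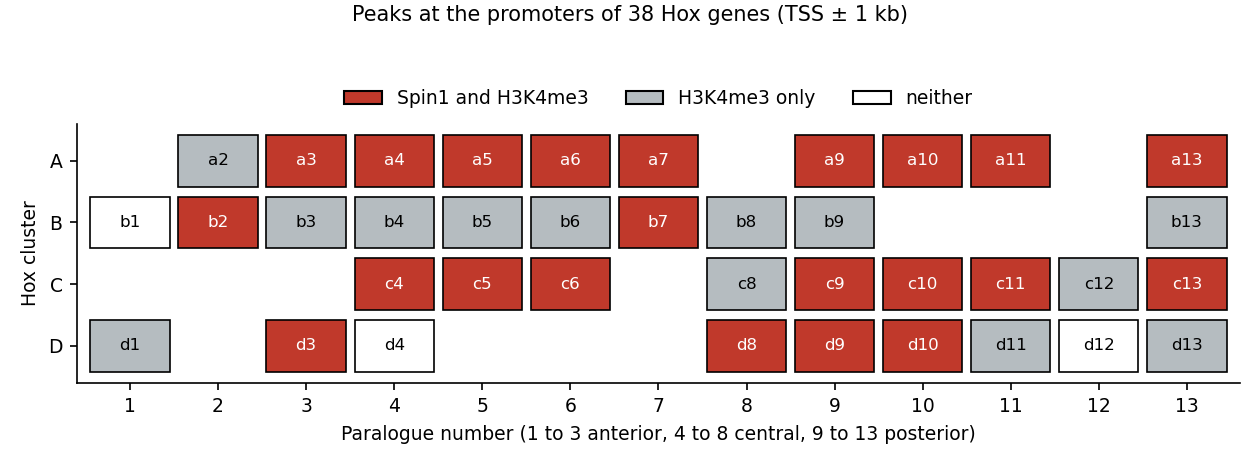
State of each of the 38 Hox promoters (TSS ± 1 kb) by cluster (rows) and paralogue number (columns); red, Spin1 and H3K4me3; gray, H3K4me3 only; white, neither; an empty place holds no analysed gene. Red fills 9 of 10 places in cluster A and 7 of 9 in cluster C, but 2 of 10 in cluster B and 4 of 9 in cluster D.

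Paralogue number, the place of a gene in the order shared by the 4 clusters, was summed over 3 regions. Among the anterior genes (numbers 1 to 3) Spin1 was present at 3 of 7, among the central genes (4 to 8) at 9 of 15 and among the posterior genes (9 to 13) at 10 of 16. Every analysed gene of number 7 (2 of 2) and number 10 (3 of 3) carried Spin1, and none of number 1 or number 12 did (0 of 2 each). Among the few anterior genes the clusters were level, with 1 of 2 in HoxA, 1 of 3 in HoxB and 1 of 2 in HoxD, and HoxC holds none. Posterior genes carried Spin1 at 8 of 9 promoters in HoxA and HoxC and at 2 of 7 in HoxB and HoxD, and the anterior and central genes at 8 of 10 and 4 of 12. The same paralogue could thus be in either state: Hoxa11, a gene of the forearm and lower leg that also acts in limb muscle precursors, and Hoxc11 carried Spin1, and Hoxd11, the partner of Hoxa11 in the forearm, did not. Likewise the digit gene Hoxa13 carried Spin1 and the digit gene Hoxd13 did not.

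Seen as stretches of chromosome, HoxA and HoxC lay largely under both sets of peaks. HoxA (chr6:52162417-52260880, 98.5 kb from the first to the last analysed gene) was covered to 44.1% by 15 Spin1 peaks and to 70.4% by 17 H3K4me3 peaks. HoxC (chr15:102921131-103036856, 115.7 kb) was covered to 34.9% by 20 Spin1 peaks and to 65.9% by 14 H3K4me3 peaks. In HoxD (chr2:74668225-74765142, 96.9 kb) the values were 5.88% for 4 Spin1 peaks and 35.6% for 19 H3K4me3 peaks, and in HoxB (chr11:96194316-96368254, 173.9 kb) 4.05% for 6 and 25.1% for 19. All 4 clusters were above the genome, of which Spin1 covered 1.21% and H3K4me3 2.48%. Spin1 cover was 36.5-fold that of the genome in HoxA, 29.0-fold in HoxC, 4.87-fold in HoxD and 3.36-fold in HoxB, and H3K4me3 cover was 28.3-fold, 26.5-fold, 14.3-fold and 10.1-fold. As a ratio, the difference between HoxA and HoxB was thus several times larger for the reader than for its mark. In percentage points of cover it was not larger. HoxB is long because Hoxb13, a gene of the prostate and tail region, lies far from the others. Without it H3K4me3 cover was 39.0%, above that of HoxD, and Spin1 cover was 7.27% (an alternative chosen after seeing the data).

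**Figure D2:**
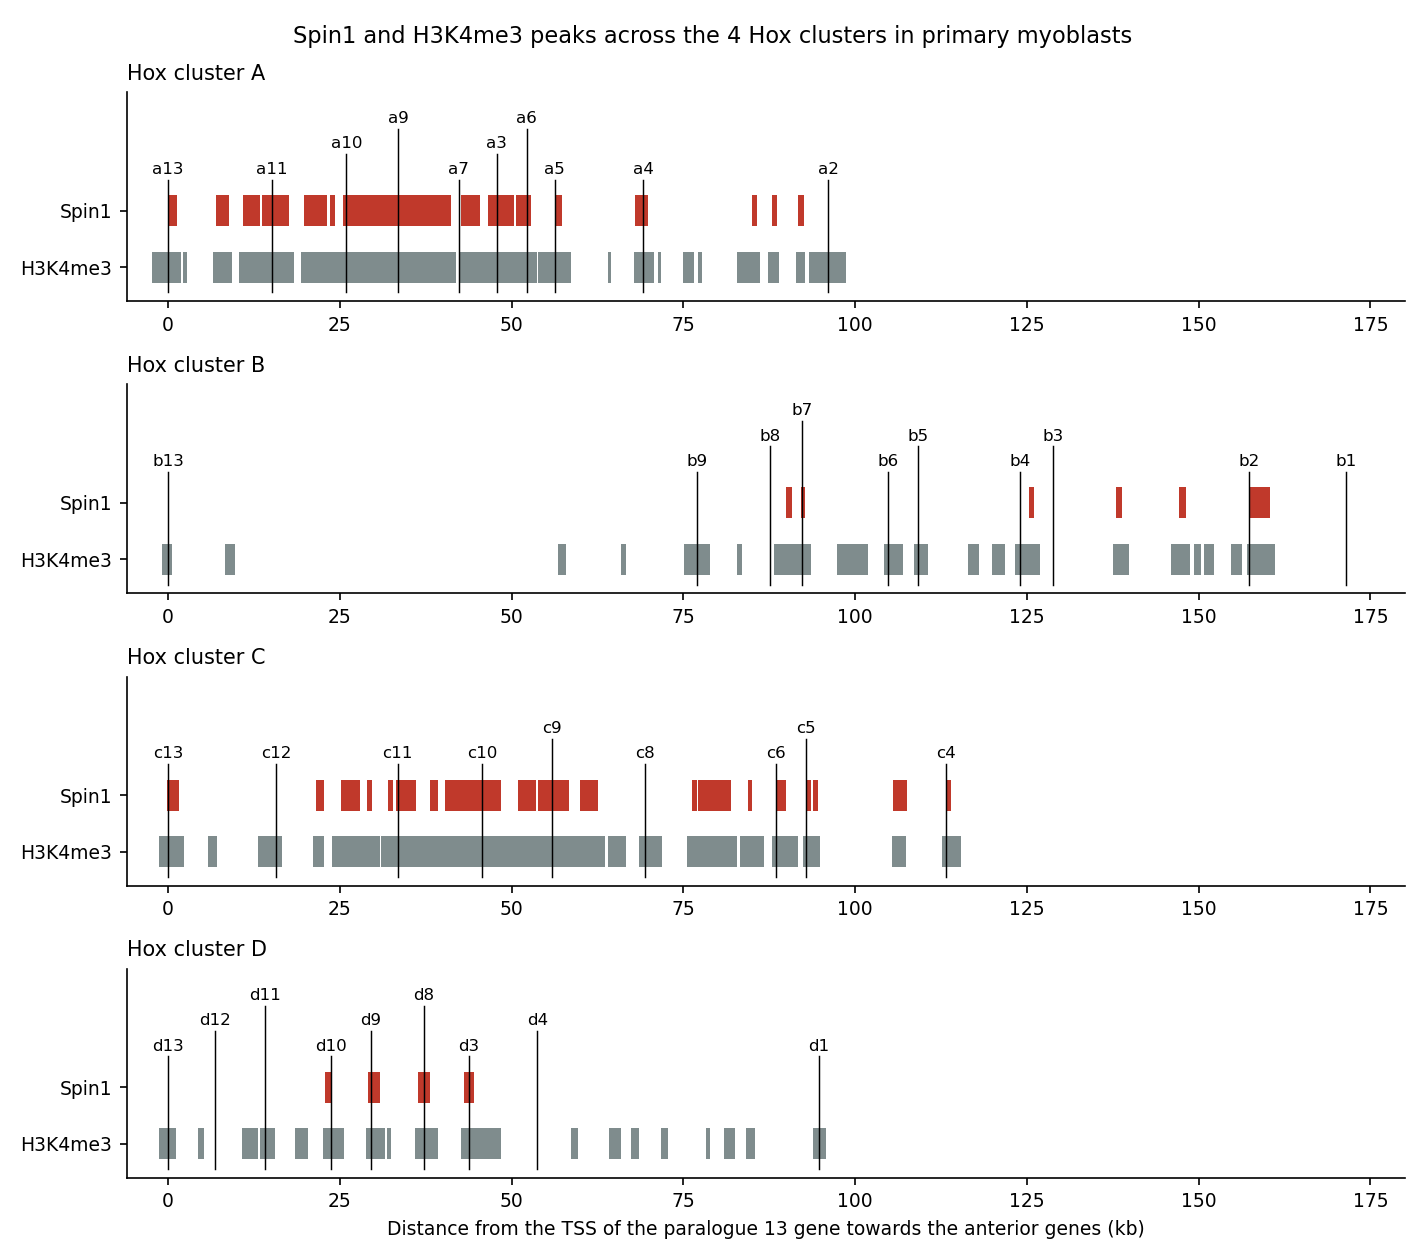
Spin1 peaks (red) and H3K4me3 peaks (gray) along each Hox cluster, drawn to a common scale, with the distance in kb from the TSS of the gene with paralogue number 13; black lines mark 1 TSS per gene. Red blocks run through the left part of cluster A. In cluster C they are widest from Hoxc11 to Hoxc9, after a stretch of 19823 bp without any beside Hoxc13, and smaller ones reach Hoxc4. Clusters B and D hold 6 and 4 short ones.

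As in the genome at large, where 31.2 Mb of the 32.9 Mb under Spin1 were also under H3K4me3, Spin1 hardly left the mark. Every base under Spin1 in HoxA, HoxB and HoxD was also under H3K4me3, and in HoxC 99.7% were, with 113 bp outside it. Conversely, Spin1 covered 62.6% of the H3K4me3 bases in HoxA and 52.9% in HoxC, but 16.2% in HoxB, and 5.70 kb of 34.5 kb in HoxD. Over the genome that share was 46.1%, and over H3K4me3 peaks at protein-coding promoters it was 58.3%. HoxA and HoxC were therefore close to the usual proportion, and HoxB and HoxD were the ones that fell below it. The longest stretch without Spin1 was 90001 bp in HoxB (chr11:96194316-96284316, from Hoxb13 into Hoxb8) and 52443 bp in HoxD (chr2:74712700-74765142, from Hoxd3 to the end of Hoxd1), compared with 15219 bp in HoxA and 19823 bp in HoxC. The first of these is set by the distance of Hoxb13: from Hoxb9 to Hoxb1 the longest was 32488 bp.

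Few places of the genome are covered as densely. Cut into 27247 tiles of 100 kb, the genome held no tile with Spin1 cover as high as that of HoxA and 1 as high as that of HoxC, and the same 2 counts, 0 and 1, were found for H3K4me3. The most Spin1-covered tile was chr6:52200001-52300000 (39.2%), which holds part of HoxA, and the next was chr15:102900001-103000000 (32.1%), which holds part of HoxC. For HoxD and HoxB, 1541 and 2921 tiles had at least as much Spin1 and 26 and 120 had at least as much H3K4me3. From Hoxb9 to Hoxb1, without Hoxb13, HoxB had 971 and 14 such tiles and stood above HoxD in both (an alternative chosen after seeing the data). The clusters were chosen around genes and the tiles were not, so these ranks are a description.

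In HoxA and HoxC the widest peaks lay over posterior genes. The widest H3K4me3 peak of the genome (32706 bp, rank 1 of 30763, chr15:102952073-102984778) ran across Hoxc11, Hoxc10 and Hoxc9, which act in the hind limb and lower trunk. In HoxA a peak of 22615 bp (rank 5, chr6:52218993-52241607) reached the promoters of Hoxa7, Hoxa9 and Hoxa10, and one of 11315 bp (rank 80) those of Hoxa3, Hoxa6 and Hoxa7. Inside the 22615 bp domain lay the widest Spin1 peak at any protein-coding promoter, 15840 bp at chr6:52219634-52235473, over Hoxa9, which acts in the lower spine and in blood and muscle stem cells, and Hoxa10, which patterns the lumbar spine and the uterus. It ranked 2 of 17106, behind a peak of 17790 bp and score 184 at no promoter (chr6:47736930-47754719). The widest Spin1 peak of HoxC was 8082 bp over Hoxc10, a hind limb gene (rank 26, chr15:102961502-102969583). HoxB and HoxD had nothing of the kind. Their widest Spin1 peaks were 2934 bp at the hindbrain gene Hoxb2 and 1801 bp at Hoxd8, and their widest H3K4me3 peaks were 5471 bp over Hoxb7 and Hoxb8 and 5814 bp at Hoxd3.

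Hoxa9, Hoxa11 and Hoxd9 are shown as posterior promoters with both peaks. Each sequence is the 300 bases from 250 before to 50 after the TSS, read 5′ to 3′ on the strand of the gene, in lower case with each CG in capitals, from the RefSeq GRCm38.p6 promoter table. They lie at chr6:52227321-52227620 (minus strand), chr6:52245761-52246060 (minus) and chr2:74697513-74697812 (plus).
Hoxa9: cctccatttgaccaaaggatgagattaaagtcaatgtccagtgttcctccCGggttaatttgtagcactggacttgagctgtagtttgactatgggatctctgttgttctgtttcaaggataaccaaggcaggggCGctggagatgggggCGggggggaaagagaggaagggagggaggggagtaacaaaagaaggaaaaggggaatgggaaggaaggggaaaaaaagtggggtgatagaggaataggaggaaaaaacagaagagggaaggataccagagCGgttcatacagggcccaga
Hoxa11: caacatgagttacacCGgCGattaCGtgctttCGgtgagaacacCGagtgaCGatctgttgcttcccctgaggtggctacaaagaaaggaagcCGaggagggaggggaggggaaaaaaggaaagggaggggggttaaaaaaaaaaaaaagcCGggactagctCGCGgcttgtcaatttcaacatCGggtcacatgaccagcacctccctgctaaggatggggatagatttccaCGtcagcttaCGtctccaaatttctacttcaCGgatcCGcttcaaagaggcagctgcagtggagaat
Hoxd9: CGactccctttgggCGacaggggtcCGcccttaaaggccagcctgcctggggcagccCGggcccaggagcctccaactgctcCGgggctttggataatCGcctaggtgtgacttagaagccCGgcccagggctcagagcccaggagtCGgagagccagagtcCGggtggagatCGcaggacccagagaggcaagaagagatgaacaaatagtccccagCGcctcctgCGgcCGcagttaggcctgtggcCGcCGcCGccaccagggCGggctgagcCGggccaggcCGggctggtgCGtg
Hoxa9, near the center of the 15840 bp Spin1 peak, has 4 CG pairs in this window, Hoxa11 has 15 and Hoxd9 has 20, while the median of all 20488 promoters in the table is 14. A sparse promoter and a rich one were thus both occupied.

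In posterior HoxA (Hoxa9 to Hoxa13) Spin1 covered 69.2% of the bases, and in the rest of the cluster 28.4%. In HoxC the values were 45.7% and 22.0%. HoxD had 7.92% and 4.87%, and HoxB had none in its posterior part (Hoxb13 to Hoxb9) and 7.68% in the rest. H3K4me3 followed the same order, with 83.8% and 62.1% in HoxA, 76.0% and 53.6% in HoxC, 45.1% and 31.0% in HoxD, and 9.19% and 39.3% in HoxB. The posterior part was thus the denser one in HoxA, HoxC and HoxD for both. The low H3K4me3 value of posterior HoxB depends on the long stretch between Hoxb13 and Hoxb9: over Hoxb9 itself H3K4me3 covered 34.1% of the gene, and Spin1 none. Of the H3K4me3 bases, Spin1 covered 82.6% in posterior HoxA and 45.8% in the rest, 60.1% and 40.6% in HoxC, 17.6% and 15.7% in HoxD, and 0% and 19.5% in HoxB.

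**Figure D3:**
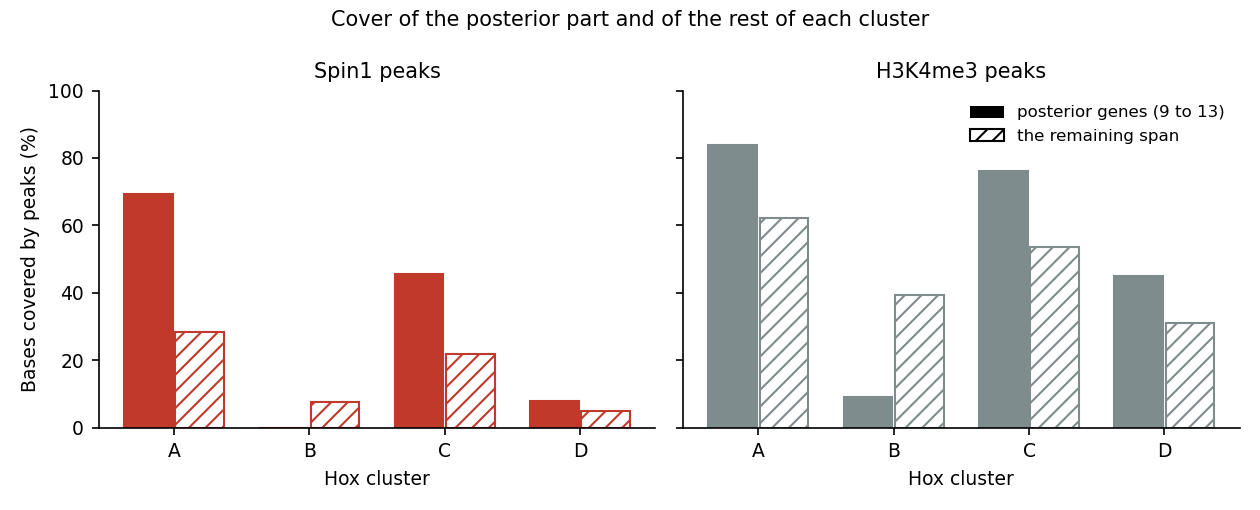
Share of bases under Spin1 peaks (left) and H3K4me3 peaks (right) in the part of each cluster that holds the posterior genes (filled bars) and in the remaining span (hatched bars), 1 library each. Filled bars are taller in clusters A, C and D (69.2% against 28.4% for Spin1 in A) and shorter in cluster B.

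Among HoxA and HoxC promoters with both peaks, Spin1 ran from broad to barely called. It stood at the score ceiling at Hoxa3, Hoxa9, Hoxa10, Hoxa11, Hoxc9, Hoxc10 and Hoxc11, 7 of the 22 occupied members, and at no promoter of HoxB or HoxD. Hoxa3, needed for thymus and parathyroid, owes its place to its curated start, which lies between Hoxa6 and Hoxa7, where a Spin1 peak of 3766 bp covers it. Hoxa7, a trunk gene, had a Spin1 peak of 2798 bp and score 2571, and its start fell into the narrow gap between the 2 wide H3K4me3 peaks of the cluster. Hoxa4 (1866 bp, score 756), Hoxa6 (2122 bp, score 764), Hoxa13 (1199 bp, score 365), Hoxc6 (1468 bp, score 355) and Hoxc13 (1795 bp, score 627), the last a gene of hair and nail, were of middle size. At the low end stood Hoxa5 (906 bp, score 187), needed for the airways, and Hoxc5 (740 bp, score 137) and Hoxc4 (664 bp, score 109) at the anterior end of HoxC. At promoters of the analysed genes the Spin1 peaks at the ceiling were thus those of numbers 9 to 11 and of the Hoxa3 start, and the gene of number 13 had a smaller one.

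In HoxB and HoxD the occupied promoters were fewer. Hoxb2 had the largest Spin1 score of HoxB (2186) and Hoxb7 a peak of only 690 bp with score 117. In HoxD Spin1 sat at 4 genes that follow each other by their starts, Hoxd10 (843 bp, score 122), Hoxd9 (1690 bp, score 1657), Hoxd8 (1801 bp, score 2249.9) and Hoxd3 (1364 bp, score 746). Hoxd9 and Hoxd10 act in the spinal cord and the limb, and Hoxd3 in the upper neck. Spin1 in HoxD was thus confined to its middle, with Hoxd11 to Hoxd13 on one side and Hoxd4 and Hoxd1 on the other left without a peak.

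**Figure D4:**
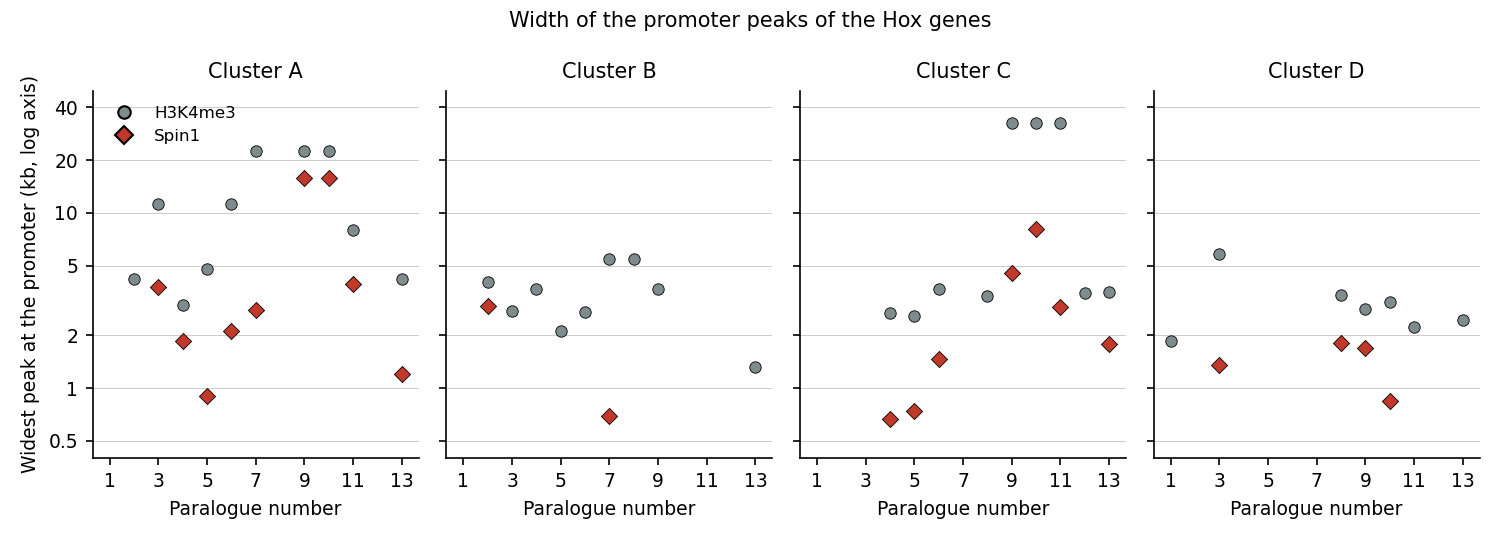
Width in kb (log axis) of the widest H3K4me3 peak (gray circles) and the widest Spin1 peak (red diamonds) at each Hox promoter against paralogue number, by cluster; a gene without a symbol has no peak of that kind. Spin1 reaches 15840 bp in cluster A and 8082 bp in cluster C, and stays at or below 2934 bp in cluster B and 1801 bp in cluster D.

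Over all 22 occupied Hox promoters the median width of the widest Spin1 peak was 1833.5 bp, compared with 2295 bp over all occupied genes. Both ends of the range were filled. A Spin1 peak under 1 kb was the widest at 5 of 22 (Hoxa5, Hoxb7, Hoxc4, Hoxc5, Hoxd10), compared with 6.38% of all occupied genes, and one of at least 4 kb at 4 of 22 (Hoxa9, Hoxa10, Hoxc9, Hoxc10), compared with 8.39%. For H3K4me3 the Hox median was 3681 bp, compared with 3250 bp, and 16 of 35 marked Hox promoters had a peak of at least 4 kb, compared with 31.6%. Hoxa9 and Hoxa10 share 1 Spin1 peak, so the wide class rests on few peaks, and the differences from all genes were not tested.

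At some Hox genes Spin1 lay beyond the start, inside the gene. The TSS base itself was under Spin1 at 16 of the 22 occupied members, compared with 96.6% of all occupied genes. At 6 of 22 (Hoxa5, Hoxa7, Hoxa13, Hoxb2, Hoxc4, Hoxc6) Spin1 covered bases downstream of the TSS and none in the 1 kb upstream of it, compared with 2.48%. The median Hox promoter had 60.9% of its upstream half-window and 89.7% of its downstream half-window under Spin1, and the median of all occupied genes had 75.0% and 100%. Occupancy at these 6 members therefore depends on counting the downstream side.

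The 13 promoters with H3K4me3 and no Spin1 were 7 of HoxB, 3 of HoxD, 2 of HoxC and 1 of HoxA. In HoxB they were Hoxb3 (2749 bp), Hoxb4 (3681 bp), a gene known for the expansion of blood stem cells, Hoxb5 (2123 bp), Hoxb6 (2729 bp), Hoxb8 (5471 bp), which keeps blood progenitors dividing, Hoxb9 (3702 bp) and Hoxb13 (1328 bp), each width being that of the H3K4me3 peak. In HoxD they were Hoxd1 (1847 bp), Hoxd11 (2243 bp) and Hoxd13 (2455 bp). The others were Hoxc8 (3352 bp), a gene of the lower neck and trunk, Hoxc12 (3471 bp) and Hoxa2 (4174 bp), which sets the identity of the second pharyngeal arch. All but Hoxb13 (score 907) and Hoxc8 (score 2774) were at the ceiling of the H3K4me3 score. The median width of the 13 was 2749 bp, compared with 1669.5 bp over all genes with H3K4me3 and no Spin1. Over all marked genes it was 3250 bp, and over the Hox genes with both peaks 5121.5 bp.

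Hoxa2, Hoxb4 and Hoxd13 are shown as promoters that carry H3K4me3 at the score ceiling and no Spin1, at chr6:52164782-52165081 (minus strand), chr11:96318017-96318316 (plus) and chr2:74667975-74668274 (plus).
Hoxa2: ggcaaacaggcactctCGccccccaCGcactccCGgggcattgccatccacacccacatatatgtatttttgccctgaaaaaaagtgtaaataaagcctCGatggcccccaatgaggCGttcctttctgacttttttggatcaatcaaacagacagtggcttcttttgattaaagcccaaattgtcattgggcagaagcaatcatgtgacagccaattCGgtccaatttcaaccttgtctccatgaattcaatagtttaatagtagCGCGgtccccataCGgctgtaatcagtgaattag
Hoxb4: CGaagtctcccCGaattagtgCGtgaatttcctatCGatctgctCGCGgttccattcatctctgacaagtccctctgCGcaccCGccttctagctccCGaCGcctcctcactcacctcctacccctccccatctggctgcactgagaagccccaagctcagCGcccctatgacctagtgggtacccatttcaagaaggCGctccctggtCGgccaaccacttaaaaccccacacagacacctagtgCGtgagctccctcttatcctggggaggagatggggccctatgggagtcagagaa
Hoxd13: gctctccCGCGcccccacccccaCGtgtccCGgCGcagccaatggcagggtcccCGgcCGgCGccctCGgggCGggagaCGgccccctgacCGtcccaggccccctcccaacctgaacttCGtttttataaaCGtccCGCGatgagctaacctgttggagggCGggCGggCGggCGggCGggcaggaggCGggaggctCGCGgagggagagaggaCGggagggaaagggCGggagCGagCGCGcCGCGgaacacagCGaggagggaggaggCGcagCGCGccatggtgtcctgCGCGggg
The CG pairs in capitals number 9, 14 and 37, while the occupied promoter of Hoxa13, not printed, has 45.

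Hox promoters were also set beside genes whose H3K4me3 peak was likewise at the score ceiling, where strength cannot be ranked, or of the same width class, and the gap in Spin1 was largest in HoxB and HoxD. Where the promoter H3K4me3 peak was at the score ceiling, Spin1 was present at 22 of 33 Hox promoters, compared with 91.7% of all such genes; this was 16 of 18 in HoxA and HoxC and 6 of 15 in HoxB and HoxD. Where the H3K4me3 peak was 2 to 4 kb wide, Spin1 was present at 8 of 17 Hox promoters, compared with 91.0%, with 5 of 7 and 3 of 10 in the 2 pairs. At H3K4me3 peaks of at least 4 kb the Hox genes came closest to the rest, with 14 of 16 compared with 98.1%; the exceptions were Hoxa2 and Hoxb8. The 2 members with a peak under 2 kb, Hoxb13 and Hoxd1, had no Spin1, compared with 26.7% occupied among all genes of that class.

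The 3 promoters with neither peak were Hoxb1, Hoxd4 and Hoxd12. Hoxb1, which specifies a hindbrain segment, lay 10313 bp from the nearest H3K4me3 peak and 11086 bp from the nearest Spin1 peak. Hoxd4, a gene of the neck, lay 4922 bp and 9279 bp away, and the digit gene Hoxd12 lay 1582 bp and 16076 bp away. Hoxd12 is thus unmarked between the marked genes Hoxd11 and Hoxd13. Hoxb1 and Hoxd4 are shown as promoters with neither peak, at chr11:96365508-96365807 and chr2:74721728-74722027, both on the plus strand.
Hoxb1: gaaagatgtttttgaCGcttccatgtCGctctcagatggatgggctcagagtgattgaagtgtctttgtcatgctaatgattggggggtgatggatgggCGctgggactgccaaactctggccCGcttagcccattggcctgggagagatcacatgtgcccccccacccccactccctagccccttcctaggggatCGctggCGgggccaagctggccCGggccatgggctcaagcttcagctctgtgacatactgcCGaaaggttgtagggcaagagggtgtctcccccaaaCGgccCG
Hoxd4: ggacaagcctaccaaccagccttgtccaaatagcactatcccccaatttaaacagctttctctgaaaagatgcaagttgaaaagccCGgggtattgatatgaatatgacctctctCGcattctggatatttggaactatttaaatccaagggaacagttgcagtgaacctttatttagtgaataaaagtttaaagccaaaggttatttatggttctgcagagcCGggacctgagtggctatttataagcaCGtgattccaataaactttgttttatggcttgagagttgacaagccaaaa
They hold 10 and 4 CG pairs. Hoxd4 matches Hoxa9 in that number and differs from it in occupancy. Over the 24 Hox promoters in the table the median number was 20 with both peaks (14 promoters), 14 with H3K4me3 only (7) and 10 with neither (3). These promoters belong to 22 of the 38 members. Over the TSS ± 1 kb window of all 38, the median CpG counts were 93, 94 and 60 in the same order. The first 2 states were thus level there.

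Promoter calls near the 1 kb limit concern a few genes. On the inside, the nearest Spin1 base lay 296 bp from the TSS at Hoxa7, 107 bp at Hoxb2 and 105 bp at Hoxa5, and the nearest H3K4me3 base 564 bp away at Hoxb8. On the outside, Spin1 came to 1303 bp of Hoxb4 and 1305 bp of Hoxb3 and H3K4me3 to 1582 bp of Hoxd12. With TSS ± 2 kb Hoxb3 and Hoxb4 gained Spin1, making 16 of 19 in HoxA and HoxC and 8 of 19 in HoxB and HoxD.

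CpG content was compared over the whole promoter window. CpG-rich here means at least 50% GC and an observed to expected CpG ratio of at least 0.6. This held for 19 of 38 Hox promoters, compared with 32.1% of all genes, and for 5 of 10 in HoxA, 5 of 10 in HoxB, 3 of 9 in HoxC and 6 of 9 in HoxD. HoxC, with the fewest, was thus among the most occupied, and HoxD, with the most, among the least. The median CpG count of the window was 107 in HoxA, 79.5 in HoxB, 88 in HoxC and 143 in HoxD. Among the 19 CpG-rich Hox promoters Spin1 was present at 11, compared with 92.3% of all CpG-rich promoters, and H3K4me3 without Spin1 at 8, compared with 7.50%.

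**Figure D5:**
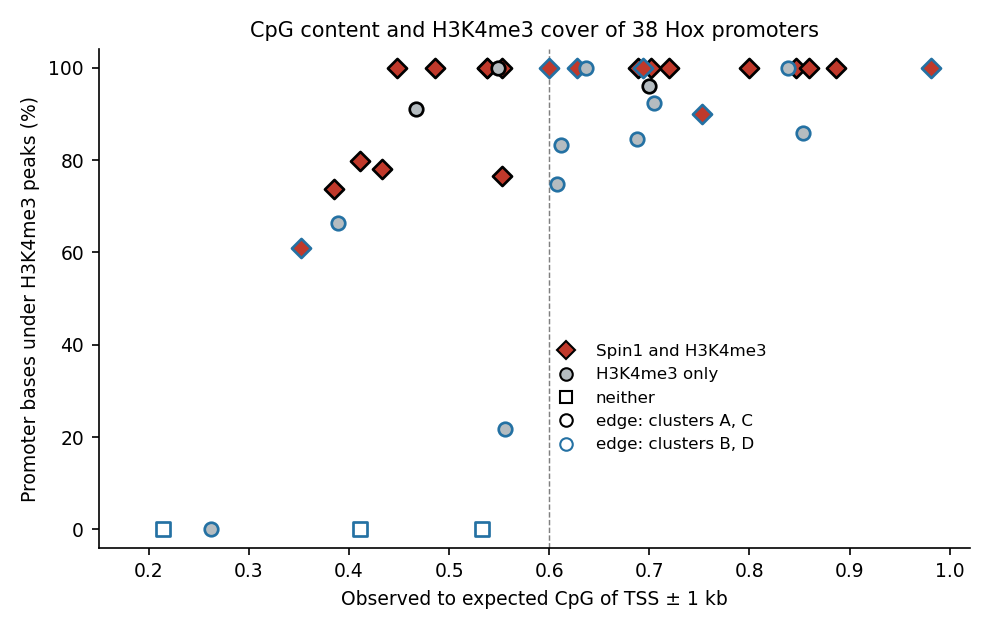
Share of the promoter window (TSS ± 1 kb of 1 TSS per gene) under H3K4me3 peaks against the observed to expected CpG ratio of the same window for 38 Hox genes; symbols give the state, edges the clusters (black, A and C; blue, B and D), and the dashed line marks 0.6. On the right of the line 11 promoters carry Spin1 and 8 carry H3K4me3 only; Hoxb3 lies at 0% because its H3K4me3 peaks are at its other TSS.

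The promoter table held 24 promoters of 22 of the 38 members. Not in it were Hoxa4, Hoxb2, Hoxb3, Hoxb5, Hoxb6, Hoxb7, Hoxb9, Hoxb13, Hoxc5, Hoxc6, Hoxc8, Hoxc9, Hoxc10, Hoxc11, Hoxc12 and Hoxc13. These motifs were searched on both strands of the 300 bases, without regard to overlap: the E-box CANNTG read by Myod1 and its relatives, TATAAA, and TGATNNAT, the core of sites of Hox proteins with their Pbx partners. The E-box letters were in 17 of 24 Hox promoters (70.8%), compared with 68.7% of all 20488, TATAAA in 4 (16.7%), compared with 12.4%, and TGATNNAT in 4 (16.7%), compared with 7.20%. The shares were close to those of all promoters for the first 2 and rest on 4 promoters for the third. By state, TGATNNAT was in 0 of 14 promoters with both peaks, 3 of 7 with H3K4me3 only and 1 of 3 with neither. A match is a run of letters and says nothing of binding.

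Of the 6 microRNA genes inside the clusters, the 5 of the miR-196 and miR-10 families, which share seeds across clusters, are shown as the mature 5p strands; Mir615 is described without its sequence. The strands are written 5′ to 3′, with the seed (bases 2 to 8) in capitals, from RefSeq GRCm38.p6, grouped by shared seed.
mmu-miR-196b-5p: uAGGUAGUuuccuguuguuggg
mmu-miR-196a-5p: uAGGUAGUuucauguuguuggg
mmu-miR-10a-5p: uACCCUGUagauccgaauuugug
mmu-miR-10b-5p: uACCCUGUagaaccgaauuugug
The first 2 share the seed AGGUAGU and the last 2 the seed ACCCUGU. Mir196b of HoxA (chr6:52230081-52230165) lay whole within the 15840 bp Spin1 peak and the 22615 bp H3K4me3 peak. The mature miR-196a has 2 genes, and they differed: Mir196a-2 of HoxC (chr15:102973350-102973434) lay whole under a Spin1 peak of 2599 bp and the 32706 bp H3K4me3 peak, and Mir196a-1 of HoxB (chr11:96265164-96265265) had neither, although the genes on its sides, Hoxb9 and Hoxb13, carry H3K4me3. Mir10a of HoxB and Mir10b of HoxD had H3K4me3 within 1 kb of the hairpin start and no Spin1, and Mir615 of HoxC had both.

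Of 17 long noncoding RNA genes inside the spans, 8 had both peaks at the promoter, 7 had H3K4me3 only and 2 had neither, compared with 29.7%, 11.1% and 58.9% of all 3319 long noncoding RNA genes. Both peaks were present at 4 of 7 in HoxA, 1 of 4 in HoxB, 2 of 2 in HoxC and 1 of 4 in HoxD, and H3K4me3 only at 2, 2, 0 and 3. With the 6 microRNA genes the counts were 11 with both, 9 with H3K4me3 only and 3 with neither of 23. Hotair, transcribed from HoxC between Hoxc12 and Hoxc11 and known for its ties to Polycomb, had a Spin1 peak of 2721 bp (score 1736) and an H3K4me3 peak of 7044 bp. Hoxa11os, antisense to Hoxa11, had both as well, under the peaks of 3925 bp and 7954 bp that also cover the Hoxa11 start. Haglr, which starts beside Hoxd1, had H3K4me3 only.

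Peaks were also found away from the promoters of the analysed genes. Of 45 Spin1 peaks in the 4 spans 22 reached no member promoter, with 12 in HoxC, 6 in HoxA, 4 in HoxB and 0 in HoxD, and of 69 H3K4me3 peaks 38 reached none. These Spin1 peaks were mostly small, with a median of 834.5 bp. Some of them lay at promoters of noncoding genes, such as the peak of 2721 bp at Hotair. The widest, 4669 bp at the score ceiling (chr15:102998324-103002992), lay between Hoxc8 and the curated Hoxc6 start. It began just inside the 5′ end of the RefSeq gene Hoxc6 (chr15:102998226), so it need not be far from a start of that gene.

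Of 16 neighbors of the clusters, 11 had both peaks, 3 had H3K4me3 only and 2 had neither, near the 56.7% of all genes with Spin1. Evx1, 52.6 kb from HoxA, and Evx2, 6.70 kb from HoxD, homeobox genes of the posterior body and spinal cord, had H3K4me3 peaks of 1531 bp and 1822 bp and no Spin1. Beside HoxA, Skap2, Snx10 and Hibadh had both, and beside HoxC, Calcoco1, Atp5g2, Smug1 and Cbx5, which encodes a heterochromatin protein, had both. Beside HoxD, Lnpk, Mtx2 and Hnrnpa3 had both, so beyond Evx2 the neighbors of HoxD were occupied on both sides. Beside HoxB, Snx11 had both, Skap1 H3K4me3 only, and Ttll6 and Calcoco2 neither.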

How the data were processed

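Primary myoblasts were profiled with 1 ChIP-seq library for Spin1 and 1 for H3K4me3. Reads were aligned by the authors (bowtie 2, mm10), and peaks were called with MACS 1.4.2 against an input library and filtered by false discovery rate. The score deposited for each peak is minus 10 times the log10 of the MACS p-value. It is not normalized for depth or width, and depth is unknown. Peaks were intersected with RefSeq release 108.20200622 in Python 3.11.15 with NumPy 2.4.6, pysam 0.24.0 and matplotlib 3.10.9; interval code was tested on simulated data. Libraries were grouped by antibody. No test was run; Wilson 95% intervals cover counting error only. A further Hox gene and some genes of the lists are not reported here. The members and lists were chosen with earlier results of these data known. All members could be named; described in full were those under the widest peaks of each cluster, those without Spin1, and those nearest the 1 kb limit. Marker, regulator and neighbor lists were counted the same way. Alternatives changed the promoter window, the overlap rule, the transcripts, the peak list and the span. Of 25 samples in the series 2 were used; 22 RNA-seq samples and the input, which has no peak list, were not.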

Additional observations from a re-analysis of the deposited data

How the results depend on the processing

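No paired analysis was possible because there is 1 library for each antibody. Of 91 values recomputed under alternative settings, 47 counts stayed within 1.5 times the reported count. A further 32, all cover values, stayed within Wilson 95% intervals that take each kb as a separate trial. The remaining 5 counts and 7 cover values moved beyond these limits. All 5 were counts of Hox genes, whereas the 47 include counts over all protein-coding genes, every one of which stayed. When the peak center had to lie in the window, 22 Hox promoters had H3K4me3 (56.3% of all genes did, so the excess over all genes was gone) and 10 had neither peak; wide peaks are lost by construction, since their centers lie far from most starts they cover. When the TSS base had to lie in the peak, 5 had neither. With the 50% of peaks of highest score, 11 Hox promoters had Spin1 (42.9% of all genes) and 23 had H3K4me3 only (20.1%). Under the same setting Spin1 cover was 30.2% in HoxA, 1.69% in HoxB and 21.4% in HoxC, the share of H3K4me3 bases under Spin1 was 48.2% in HoxA and 34.2% in HoxC, and H3K4me3 cover of HoxD was 26.2%; fewer peaks are counted by construction. The intervals are wide where cover is low, and with these peaks the values inside them included Spin1 cover of HoxD at 3.6% and the share of H3K4me3 bases under Spin1 in HoxB at 8.51%. Without Hoxb13, chosen after seeing the data, H3K4me3 cover of HoxB was 39.0%, since the span is shorter. Spin1 was present at more promoters in HoxA and HoxC than in HoxB and HoxD under every setting tried, from 8 and 3 of 19 with the highest scores to 16 and 8 with TSS ± 2 kb. With predicted transcripts, also chosen after seeing the data, Hoxb3 gained Spin1 and the counts were 16 and 7.

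Depth limits what the lists can show: a promoter without a peak is one without a call, not one shown to lack signal, and peaks of low score such as that of Hoxc4 (109) stand near the end of the list. Scores at the ceiling cannot be ranked. Peak width depends on how the caller splits or joins neighboring peaks. Front and hind limb cells were pooled, and Hox genes differ between limbs, so the lists do not separate cells with a marked promoter from cells without one. Expression of the Hox genes was not analysed.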

Other observations

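The regulators of Hox genes were counted from fixed lists under the same promoter rule. All 9 Hox cofactors, the Pbx, Meis and Pknox homeodomain proteins that bind DNA with Hox proteins, carried both Spin1 and H3K4me3 (over all genes 56.7% carried Spin1, and of those with H3K4me3 83.3% did), with the widest Spin1 peak at Meis1 (7652 bp) and the narrowest at Pbx4 (647 bp). All 21 Polycomb subunits carried both, among them the methyltransferase gene Ezh2 (Spin1 2995 bp) and its partner Eed (3295 bp). Of 9 Trithorax genes 8 carried both, including Kmt2a (4419 bp), the methyltransferase that maintains Hox expression, and Ash1l carried neither.

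Developmental regulators outside the clusters were counted in the same way. Of 7 caudal and related homeobox genes 6 carried H3K4me3 (68.0% of all genes) and 1, Gbx2, carried Spin1 (56.7% of all genes); Cdx4 carried neither. Of 19 master regulators of other lineages 5 carried both, 10 carried H3K4me3 only and 4 carried neither. Over all genes 56.7% carried Spin1, 11.3% carried H3K4me3 only and 32.0% carried neither. Sox2 had a narrow Spin1 peak (747 bp) and Gata6 a wider one (2615 bp), and Olig2, Gata4 and Foxa2 carried H3K4me3 without Spin1. Of 21 Pax, Meox, Eya and related regulators 13 carried both, 7 carried H3K4me3 only and 1, Pax4, carried neither. Among those with both, Pax7, at work in muscle precursors, had Spin1 over 5404 bp and H3K4me3 over 17266 bp. Pax1, Pax5, Pax8, Pax9 and Meox1 were among those with H3K4me3 only. The limb identity genes divided in the pooled cells: Tbx5 of the forelimb (Spin1 702 bp, H3K4me3 3406 bp) and Pitx1 of the hind limb (1790 bp and 7069 bp) carried both, and Tbx4 of the hind limb carried H3K4me3 only (1632 bp). All 3 carried H3K4me3, as did 68.0% of all genes and 15 of the 19 master regulators of other lineages. These counts therefore say nothing of limb identity.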
